A study of Homo sapiens with 10 samples.

Results

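The genes that encode the ligands related to epidermal growth factor (EGF) were examined in 2 established cell lines from human breast cancer, SKBR3 and BT474. Both carry an amplified ERBB2, the gene of the receptor HER2. The 10 ligand genes were EGF, AREG, EREG, BTC, HBEGF, TGFA, NRG1, NRG2, NRG3 and NRG4, out of 20098 protein-coding genes on chromosomes 1 to 22 and X. Each was taken by name as its gene body in hg19 with 50 kb added on each side, called its window here, and the windows together spanned 3.91 Mb. HER2 had been mapped by ChIP-exo, in which DNA pulled down by an antibody is trimmed by an exonuclease before sequencing. There were 4 lists of HER2 peaks, from SKBR3 cells given vehicle (water), SKBR3 cells given EGF at 100 ng/ml, BT474 cells given vehicle and BT474 cells given EGF at 100 ng/ml, each for 3 hours and each without a replicate. Monomethylation of histone H3 at lysine 4 (H3K4me1), a mark of enhancers, had been mapped by ChIP-seq in 2 replicates of each line. The labels call the H3K4me1 cells asynchronous, but according to the study they had received EGF. Both lines are cultured tumour lines, and nothing states that the H3K4me1 replicates came from separate cultures, so p-values measure only the spread between these libraries.

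The ligands of this family are made as membrane-bound precursors, and proteases of the ADAM type release them from the cell surface. EGF, TGFA and AREG bind the EGF receptor (EGFR), BTC, HBEGF and EREG bind both EGFR and ERBB4, and the neuregulins bind ERBB3 or ERBB4. HER2 itself has no known ligand and signals as the partner of these receptors, so that the ligands decide which pairs form at the surface of a breast epithelial cell.

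An H3K4me1 island is a stretch in which reads stood above the input, and the authors deposited the number of reads in each. These island reads numbered 15636057 and 15314195 in the SKBR3 replicates and 18714089 and 15097245 in the BT474 replicates. The list holds only stretches above a minimum, so a window at 0 has no island listed and may still hold reads. The window of ERBB2 was covered by islands over 99.2% or more of its length in each of the 4 libraries. Of the luminal keratins, the window of KRT8 was covered over 51.9% ± 2.69 in SKBR3 and 50.2% ± 0.99 in BT474, that of KRT18 over 51.5% ± 5.87 and 47.8% ± 0.283, and that of KRT19 over 75.3% ± 8.49 and 44.6% ± 1.70 (SD, n = 2). KRT19 had more reads in SKBR3 (log2 1.80, adjusted p = 9.21e-05 by edgeR), and KRT8 and KRT18 did not pass the test. Of the other luminal markers, FOXA1 had more reads in BT474 (log2 -1.0, adjusted p = 0.00187 by edgeR). GATA3 did not pass the test (log2 -0.13, adjusted p = 0.395 by edgeR). The window of the progesterone receptor gene PGR was covered over 5.44% ± 0.0707 in SKBR3 and 69.2% ± 2.19 in BT474 (SD, n = 2). That of the oestrogen receptor gene ESR1 was covered over 19.9% ± 0.424 and 26.6% ± 0.849 (SD, n = 2). Its reads did not pass the test (log2 -0.16, adjusted p = 0.0939 by edgeR). Of the basal and mesenchymal markers, KRT5 stood at 17.9% ± 0.778 in SKBR3 and 5.29% ± 0.262 in BT474, KRT14, whose window lies near that of KRT19, at 54.7% ± 4.17 and 21.3% ± 0.566, TP63 at 42.0% ± 2.33 and 33.6% ± 3.39, and VIM at 6.50% ± 0.643 and 10.7% ± 0.141 (SD, n = 2). The reads of KRT5, KRT14 and TP63 were higher in SKBR3 and those of VIM in BT474. Among all 11 marker genes other than ERBB2, 4 windows had more island reads in SKBR3 and 3 had more in BT474. Over all gene windows tested, 34.2% were called higher in SKBR3 and 38.2% in BT474. Relative to islands within 1 Mb of each window but outside it, KRT5 stayed higher in SKBR3 (log2 1.48, adjusted p = 0.00135 by edgeR). On that scale KRT19 (-0.51, adjusted p = 0.00157), KRT14 (-0.2, adjusted p = 0.0369) and TP63 (-0.35, adjusted p = 0.00367, all by edgeR) were higher in BT474. VIM (0.26) and FOXA1 (-0.14) lost their calls, and PGR (-2.33) and ESR1 (-1.84) were called higher in BT474. Cover by H3K4me1 is not a measure of expression.

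The amount of H3K4me1 at the ligand genes differed between the 2 lines. In SKBR3 the windows of HBEGF and NRG2 held the most island reads for their length, and in BT474 those of AREG and HBEGF did. The largest differences were at NRG2, which was marked far more in SKBR3, and at NRG3, which had no island in SKBR3 and 35 to 37 islands in BT474. NRG1 was the only ligand gene that was all but bare in both lines. Of the 9 ligand genes that passed the filter on low counts, 4 had more island reads in SKBR3 (EGF, BTC, HBEGF and NRG2), 4 had more in BT474 (EREG, TGFA, NRG3 and NRG4), and AREG did not pass the test, with edgeR's quasi-likelihood test at a Benjamini-Hochberg adjusted p below 0.05. The 4 ligand genes higher in BT474 became 2 in the gene body alone, where 5379 of 15501 genes tested were higher in BT474. They also became 2 with 10 kb on each side, where 6167 of 17348 were. Fewer ligand genes were called when a BT474 library was left out, which leaves that line without a replicate, and calls over all genes fell as well. NRG3 passed the filter through its BT474 reads alone, so its call restates that no island was listed in SKBR3. Over all 18844 gene windows tested, 34.2% were higher in SKBR3 and 38.2% were higher in BT474, so that differences of this kind were common. The median log2 difference, SKBR3 minus BT474, was -0.37 over the 9 ligand genes and -0.11 over all genes tested. Without the TMM scaling the median of all genes was -0.26, so small log2 differences should be read against that shift.

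Taken as a list, the ligand genes had a median cover close to that of other genes. The median window cover of the 10 genes was 11.4% and 10.3% in the SKBR3 replicates, beside 11.5% and 12.1% over all protein-coding genes. In the BT474 replicates it was 11.3% and 10.2%, beside 12.8% and 12.1%. Windows with no island numbered 2 and 2 in SKBR3, and 1 and 0 in BT474, whereas 13.3% and 13.2% of all windows in SKBR3 and 7.26% and 7.71% in BT474 had none. These are descriptions, with no test of the list.

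**Figure D1:**
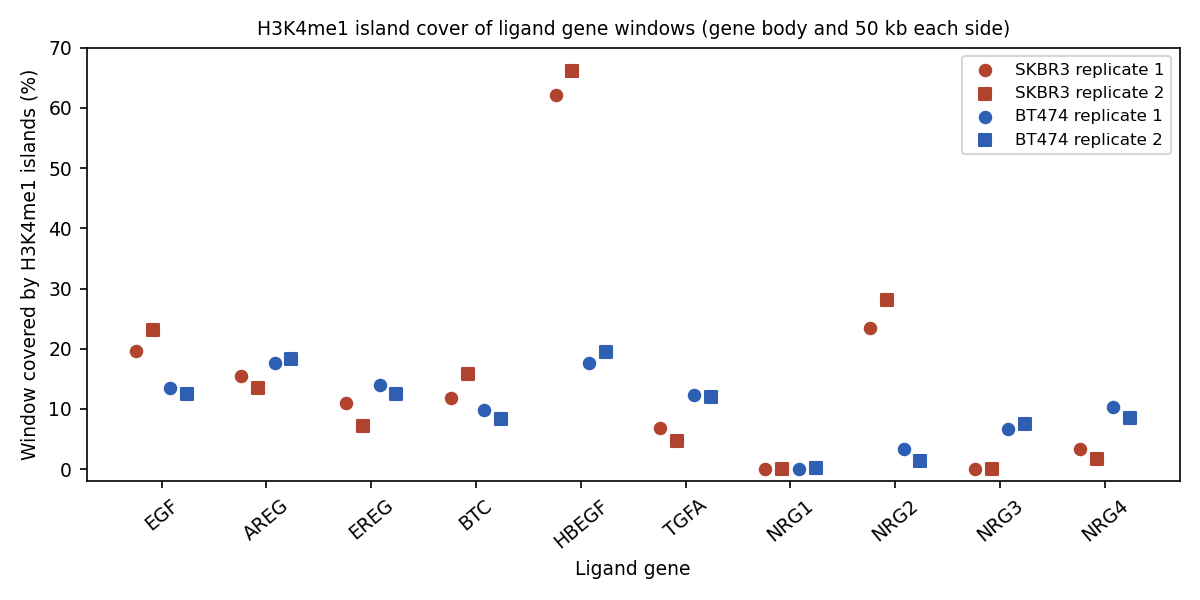
Share of each ligand gene window (gene body and 50 kb on each side) covered by H3K4me1 islands, in percent, with 1 point per library and 2 replicates per line. HBEGF stood at 62.2% and 66.1% in SKBR3 and at 17.6% and 19.5% in BT474, NRG2 was also higher in SKBR3, NRG3 had cover only in BT474, and NRG1 lay at or near 0 in all 4 libraries.

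Among the ligands that bind EGFR alone, EGF itself is the founding member, a growth factor cut from a long precursor (chr4:110834039-110934922, plus strand). Island reads were scaled for library size with TMM and are given as CPM. The window of EGF held 122 and 129 CPM in the SKBR3 replicates and 67.0 and 63.3 in the BT474 replicates. The groups did not overlap, and the log2 difference was 0.94 ± 0.07 (SE, adjusted p = 0.000547 by edgeR). Islands within 1 Mb of the window but outside it were also denser in SKBR3, with 846 and 782 CPM against 367 and 369. Relative to those surrounding reads the log2 difference of EGF was -0.19 ± 0.09 (adjusted p = 0.142 by edgeR), so the call was lost and the sign turned. The part of the surrounding level in the difference at EGF was not tested further. In both lines most of the reads lay in the gene body, 68.4% in SKBR3 and 61.0% in BT474, and an island lay over the canonical start site in all 4 libraries. That island held the most reads of any in the window in 3 of the 4 libraries, and reached 11.8 kb in SKBR3 replicate 2.

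TGFA encodes transforming growth factor alpha, a ligand that many carcinomas make for their own EGFR (chr2:70674416-70781325, minus strand). Its window held 33.6 and 29.0 CPM in SKBR3 and 78.8 and 80.1 in BT474, so that both BT474 libraries lay above both SKBR3 libraries. The log2 difference was -1.34 ± 0.11 (SE, adjusted p = 0.000602 by edgeR). The surrounding islands ran the other way, with 1170 and 1190 CPM in SKBR3 and 651 and 664 in BT474, and relative to them the log2 difference was -2.18 ± 0.12 (adjusted p = 0.000454 by edgeR). No start site of TGFA lay in an island, but 6 of its 7 start sites had an island within 1 kb in both BT474 libraries and 0 did in both SKBR3 libraries. An island in the gene body, starting between chr2 positions 70750201 and 70750801, held the most reads of any island in the window in all 4 libraries, with 147 and 215 reads in SKBR3 and 274 and 211 in BT474.

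AREG encodes amphiregulin, the main EGFR ligand of mammary duct growth (chr4:75310853-75320722, plus strand). The window held 60.4 and 48.0 CPM in SKBR3 and 68.3 and 71.7 in BT474. The BT474 values were the higher ones, but the log2 difference of -0.37 ± 0.14 did not pass the test (adjusted p = 0.0634 by edgeR). Relative to the surrounding islands, which held 438 and 386 CPM in SKBR3 and 700 and 687 in BT474, the log2 difference was 0.37 ± 0.10 (adjusted p = 0.0268 by edgeR), so the direction at AREG is not settled. No island lay in the gene body of AREG in any library. All of the reads of its window lay between genes, and the island with the most reads was downstream of the gene in all 4 libraries, with 407 and 714 reads in SKBR3 and 625 and 547 in BT474. The genome holds a near-identical copy of AREG, annotated as AREGB (chr4:75480629-75490486), in which no island lay either. Of the 9835 stretches of 36 bp in the AREG gene body, 9353, or 95.1%, had an exact copy at AREGB or within 100 kb of it, and reads of that length that fit both copies would have been dropped by the authors' filter on mapping quality. An empty AREG body therefore says little about the mark there.

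Among the ligands of both EGFR and ERBB4, HBEGF, the heparin-binding member (chr5:139712428-139726188, minus strand), had the highest level in SKBR3. Its window held 257 and 255 CPM in SKBR3 and 58.6 and 60.3 in BT474. The log2 difference was 2.11 ± 0.06 (SE, adjusted p = 7.96e-05 by edgeR), and islands covered 79.7% and 85.5% of the gene body in SKBR3 against 16.0% and 20.3% in BT474. The surrounding islands differed in the same direction, with 1330 and 1380 CPM in SKBR3 and 614 and 615 in BT474. Relative to them the difference at HBEGF was smaller and still passed the test (log2 0.97 ± 0.06, adjusted p = 0.000603 by edgeR). The surrounding reads include those of NRG2, which lies within 1 Mb of HBEGF on the same chromosome. The window also holds PFDN1 and SLC4A9, and 40% of its reads in SKBR3 and 60.3% in BT474 lay in the bodies of other genes, whereas 17.1% and 9.54% lay in the body of HBEGF itself. Of the 3 start sites of HBEGF, 2 and 3 lay in an island in SKBR3, and 0 and 1 did in BT474.

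BTC encodes betacellulin (chr4:75669969-75719733, minus strand). The window held 46.5 and 50.6 CPM in SKBR3 and 36.1 and 31.5 in BT474, with no overlap between the lines. The log2 difference was 0.52 ± 0.13 (SE, adjusted p = 0.019 by edgeR). It missed the threshold without BT474 replicate 2 (log2 0.42, adjusted p = 0.0958), without TMM (0.38, adjusted p = 0.0658), in the gene body alone (0.50, adjusted p = 0.272) and with 10 kb on each side (0.59, adjusted p = 0.0558, all by edgeR). The surrounding islands were much weaker in SKBR3, with 467 and 390 CPM against 1180 and 1170 in BT474, and relative to them the log2 difference of BTC rose to 1.98 ± 0.18 (adjusted p = 0.00129 by edgeR). An island lay over the canonical start site in 3 libraries, and in SKBR3 replicate 1 the nearest began 0.268 kb away. The 2 start sites of BTC were the only full set, of any ligand gene, within 1 kb of an island in all 4 libraries.

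EREG encodes epiregulin (chr4:75230862-75254466, plus strand). Its window held 33.1 and 20.0 CPM in SKBR3 and 46.1 and 48.0 in BT474. The SKBR3 replicates were far apart, and the log2 difference of -0.83 ± 0.27 passed the test narrowly (adjusted p = 0.0446 by edgeR). Without BT474 replicate 1 or replicate 2 the adjusted p by edgeR was 0.139 or 0.147, and relative to the surrounding islands, at 466 and 414 CPM in SKBR3 and 727 and 711 in BT474, the log2 difference was -0.14 ± 0.22 (adjusted p = 0.605 by edgeR). In the gene body alone it was -0.08 ± 0.29 and did not pass the test (adjusted p = 0.826 by edgeR). Islands covered 42.4% and 27.1% of that body in SKBR3 and 26.3% and 28.0% in BT474, and the groups overlapped. The windows of EREG and AREG share 43.6 kb, which held between 0 and 16.9% of the reads of EREG and between 0 and 11.4% of those of AREG, so these members are not fully separate measurements.

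Among the neuregulins, NRG2 (chr5:139226364-139422884, minus strand), a ligand of ERBB3 and ERBB4 known mainly from the nervous system, had the largest fitted difference among the ligand genes with islands in both lines. Its window held 330 and 352 CPM in SKBR3 and 18.8 and 10.7 in BT474, which is 4813 and 5240 against 373 and 168 island reads as deposited. The log2 difference was 4.51 ± 0.28 (SE, adjusted p = 0.000311 by edgeR). It was 3.68 ± 0.27 relative to the surrounding islands, which held 2060 and 2040 CPM in SKBR3 and 1140 and 1150 in BT474 (adjusted p = 0.000786 by edgeR). In SKBR3, 98.0% of the reads lay in the body of NRG2 itself, and the island with the most reads spanned 22.6 and 24.6 kb in the 2 replicates, with 1579 and 1755 reads. It began between chr5 positions 139240601 and 139242001, toward the 3′ end of the gene. In BT474 the island with the most reads lay at the same place and spanned 4.4 and 4.0 kb, with 207 and 168 reads. At the canonical start site, an island was present in SKBR3 replicate 2 and in BT474 replicate 1, lay 1.28 kb away in SKBR3 replicate 1, and was 61.7 kb away in BT474 replicate 2, so the start site did not follow the line.

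NRG3 encodes a ligand of ERBB4 that is expressed mainly in neurons (chr10:83634950-84746935, plus strand), and is among the longest members, with a body of 1110 kb. No island was listed in its window in either SKBR3 library, whereas the BT474 libraries listed 37 and 35 islands with 4214 and 3922 reads, covering 6.70% and 7.48% of the window. The test called the difference (adjusted p = 0.000132 by edgeR), but no fold change is given against a group in which no island is listed. NRG3 passed the filter on low counts through its BT474 reads alone, so the call restates the absence of listed islands in SKBR3. The surroundings were also nearly bare in SKBR3, with 9.95 and 6.25 CPM within 1 Mb against 315 and 376 in BT474, and the nearest island of SKBR3 was 907 or 908 kb from the canonical start site. The absence of islands in SKBR3 therefore extended beyond NRG3. How many copies of the region each line carries was not tested. In BT474 the islands were spread along the gene, all of their reads lay in its body, none lay over a start site, and the nearest lay 0.451 kb from the canonical start site in both libraries.

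NRG4 encodes a ligand of ERBB4 alone (chr15:76228310-76352136, minus strand). Its window held 18.7 and 9.54 CPM in SKBR3 and 54.2 and 45.1 in BT474, and the log2 difference was -1.82 ± 0.36 (SE, adjusted p = 0.00986 by edgeR). Relative to the surrounding islands it was -1.30 ± 0.32 (adjusted p = 0.0223 by edgeR). In BT474, 60.9% of the reads lay in the bodies of the neighbouring genes and 24.0% in that of NRG4, and within the NRG4 body the log2 difference of -0.87 ± 0.67 did not pass the test (adjusted p = 0.337 by edgeR). Without BT474 replicate 1 the adjusted p for the window was 0.0645 by edgeR. The nearest island lay 44 kb or more from the canonical start site in all 4 libraries. Of the 15 annotated start sites of NRG4, however, 2 and 2 lay in an island in SKBR3, and 2 and 5 did in BT474.

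NRG1, the best known neuregulin and the main ligand of ERBB3 (chromosome 8, with a body of 1220 kb on the plus strand), had no island in its window in 3 libraries. In BT474 replicate 2 it had 1 island of 1.6 kb with 43 reads, inside the gene body and 213 kb from the canonical start site. The gene did not pass the filter on low counts and was not tested. The surrounding islands were sparse as well, at 93.5 and 68.5 CPM in SKBR3 and 204 and 213 in BT474. None of the 32 annotated start sites of NRG1 lay in an island or within 1 kb of an island in any of the 4 libraries.

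**Figure D2:**
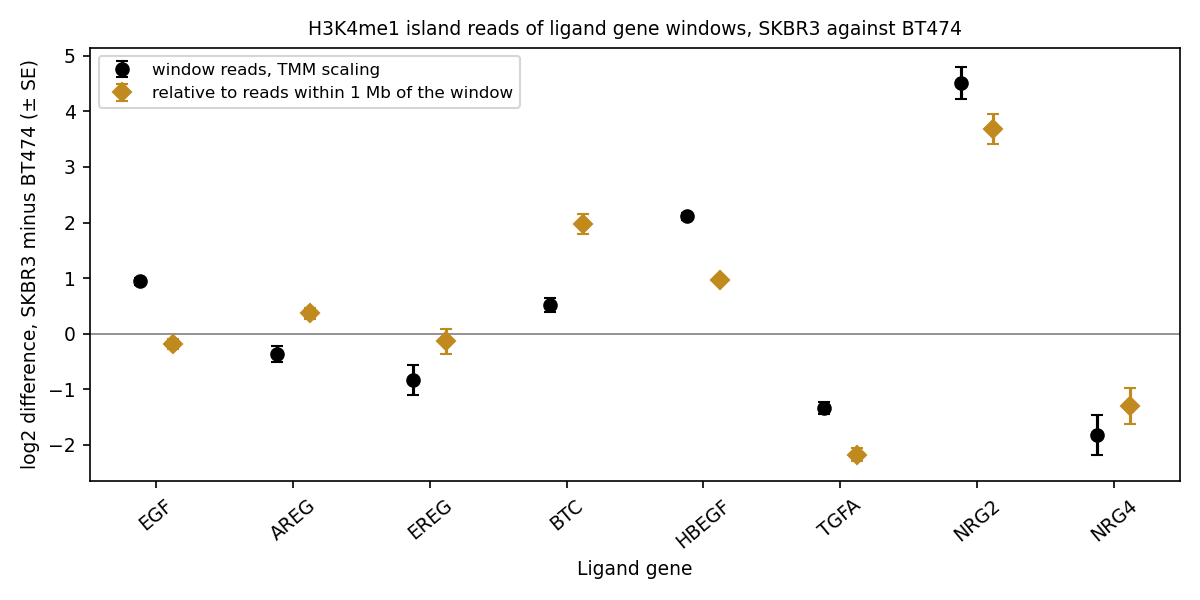
Log2 difference in H3K4me1 island reads of each ligand gene window, SKBR3 minus BT474, with the standard error as bars, for the 8 ligand genes with islands in both lines (2 libraries per line). Black circles are the TMM-scaled reads and yellow diamonds the same reads relative to islands within 1 Mb of the window, with which EGF moved from 0.94 to -0.19, AREG from -0.37 to 0.37 and BTC from 0.52 to 1.98, while HBEGF, TGFA, NRG2 and NRG4 kept their sign and EREG lay close to 0.

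Ordered by CPM per kb of window, a level that allows for the length of the genes, the ligand genes of SKBR3 ran from HBEGF (2.25 ± 0.0141 SD, n = 2) through NRG2 (1.15 ± 0.0566), EGF (0.625 ± 0.0219), AREG (0.494 ± 0.0799), BTC (0.325 ± 0.0191), EREG (0.215 ± 0.0750), TGFA (0.152 ± 0.0163) and NRG4 (0.0630 ± 0.0288) to NRG1 and NRG3, which had no island. In this order EREG and TGFA overlapped between replicates, and the other neighbours above 0 did not. In BT474 the order ran from AREG (0.637 ± 0.0212 SD, n = 2) through HBEGF (0.522 ± 0.0106), TGFA (0.384 ± 0.00424), EREG (0.381 ± 0.0106), EGF (0.325 ± 0.0134), BTC (0.226 ± 0.0212), NRG4 (0.222 ± 0.0283), NRG3 (0.191 ± 0.0205) and NRG2 (0.0498 ± 0.0196) to NRG1 (0.00103 ± 0.00146). TGFA and EREG overlapped, as did BTC with NRG4 and NRG4 with NRG3. HBEGF was thus the ligand gene that stood among the first 2 of both lines.

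Of the 90 annotated start sites of the 10 genes, 11 and 18 lay in an island in the SKBR3 replicates and 12 and 14 in the BT474 replicates, and the lines overlapped. With islands within 1 kb the numbers were 19 and 18 in SKBR3 and 25 and 24 in BT474. No share over all genes is given for that distance, so these counts are not read as a difference of the ligand genes. TGFA gave 0 and 0 of these in SKBR3 and 6 and 6 in BT474. Of the canonical start sites, 2 and 4 of 10 lay in an island in SKBR3, where 10.6% and 12.5% of all protein-coding genes had one, and 3 and 3 did in BT474, where 16.0% and 14.9% had one. EGF contributed 5 and 7 of its 12 start sites in SKBR3 and 5 and 6 in BT474. AREG, EREG, TGFA, NRG1 and NRG3 had no start site in an island in any library, and NRG2 had 1 and 4 of 6 in SKBR3 and 3 and 0 in BT474. Start sites of a gene are close together and share islands, so they are not independent.

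**Figure D3:**
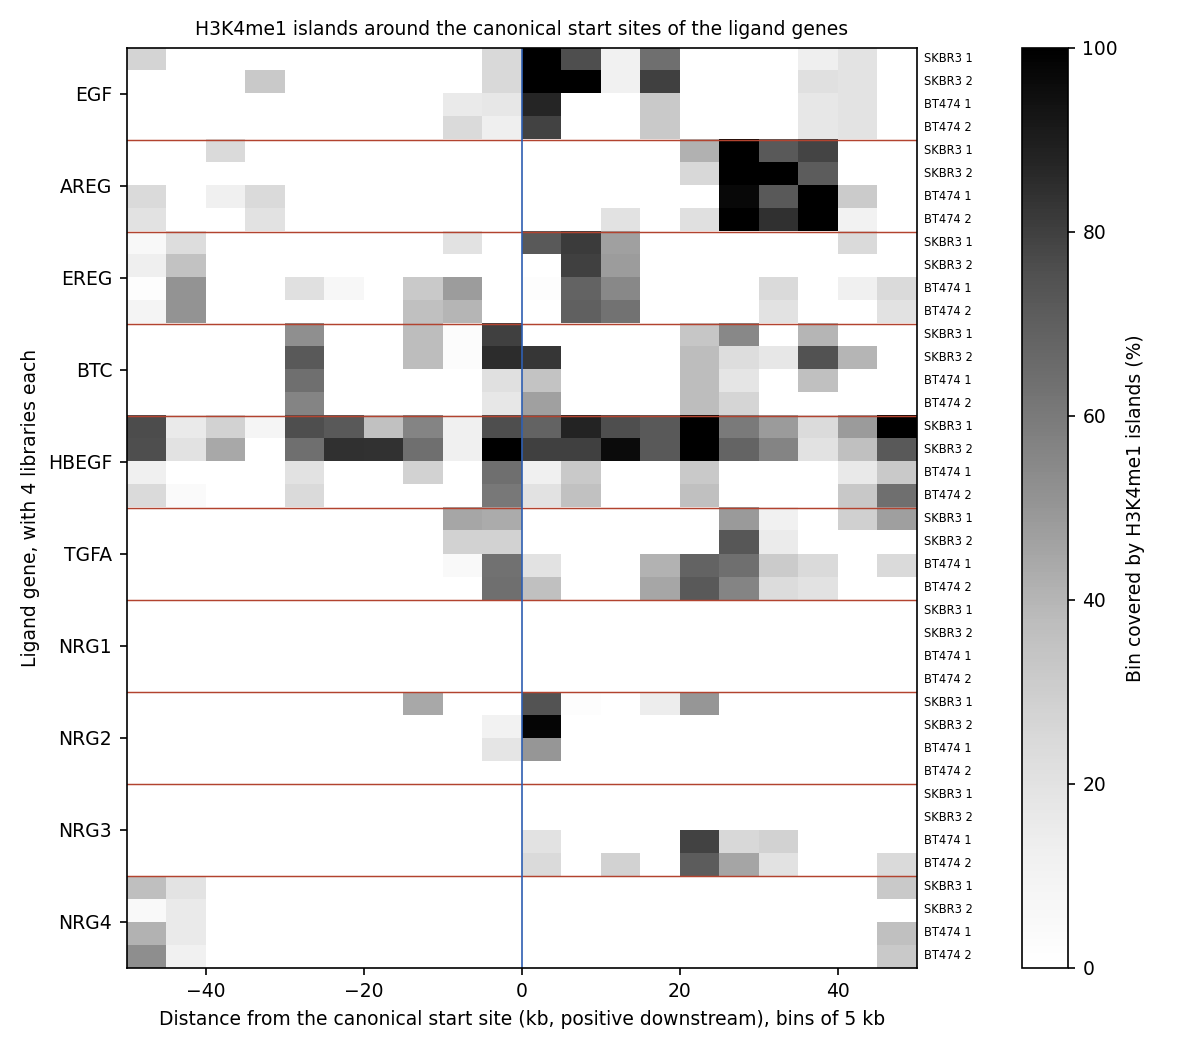
Share of each 5 kb bin covered by H3K4me1 islands within 50 kb of the canonical start site of each ligand gene, from white (0%) to black (100%), with 4 rows per gene for the 4 libraries. EGF was covered just downstream of its start in all libraries, AREG was bare around its start and covered downstream of the gene, HBEGF was covered over much of the region in SKBR3, and NRG1 was white throughout.

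The partners of the ligands were examined as a list of 17 genes for a related ligand, the receptors, the proteases that release ligands and their regulators, and the adaptors and inhibitors of the pathway. In the same fit 6 of the 17 had more island reads in SKBR3, 7 had more in BT474 and 4 did not pass the test, beside 34.2% and 38.2% of all windows, and the median log2 difference was 0.06. Among the receptors, EGFR had more reads in SKBR3, with window cover of 55.4% and 56.2% against 18.5% and 17.0% in BT474 (log2 2.03 ± 0.05, adjusted p = 7.73e-05 by edgeR). ERBB4, a receptor of the neuregulins, had more reads in BT474, with 2.2% and 2.44% cover in SKBR3 against 13.9% and 14.2% (log2 -2.92 ± 0.08, adjusted p = 7.73e-05 by edgeR). ERBB3 and ERBB2 had more in BT474 by smaller amounts (log2 -0.39 ± 0.07 and -0.45 ± 0.04), and relative to the surrounding islands the difference at ERBB2 was -0.01 ± 0.11.

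Of the other partners, RHBDF2, which brings the protease ADAM17 to the surface, had more reads in SKBR3 (log2 1.53 ± 0.09), as did CBL (1.53 ± 0.10), which tags EGFR for breakdown, the exchange factor SOS1 (1.20 ± 0.14), the EGFR inhibitor ERRFI1 (1.01 ± 0.08) and the adaptor GAB1 (0.76 ± 0.08). BACE1, a protease that cuts neuregulin, had more in BT474 (-1.99 ± 0.34), as did the ligand gene EPGN (-0.93 ± 0.12), ADAM17 (-0.89 ± 0.07) and RHBDF1 (-0.62 ± 0.09). ADAM10, GRB2, SHC1 and LRIG1 did not pass the test, with log2 differences between 0.05 and 0.09. Relative to the surrounding islands all 4 were called higher in BT474, with log2 differences of -0.43, -0.70, -0.33 and -0.84 (adjusted p = 0.00716, 0.00129, 0.0136 and 0.00164 by edgeR). On that scale ERRFI1 (0.19, adjusted p = 0.0719), EPGN (-0.35, adjusted p = 0.0693) and RHBDF1 (0.18, adjusted p = 0.0947, all by edgeR) lost their calls. BACE1 lost its call without BT474 replicate 1 or replicate 2 (adjusted p = 0.0677 or 0.134 by edgeR). The window of EPGN overlaps that of EREG, and the 2 differences are not separate.

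HER2 peaks at the ligand genes lay in introns and between genes. The ligand windows held 1 peak in SKBR3 vehicle, 2 in SKBR3 EGF, 12 in BT474 vehicle and 36 in BT474 EGF. The numbers of ligand genes with a peak were 1, 2, 4 and 6 of 10, whereas 12.2%, 13.0%, 35.5% and 72.7% of all protein-coding gene windows had a peak in the same lists. EGF, AREG, BTC and HBEGF had no peak in any list. The whole lists held 2596, 2520, 8559 and 29326 peaks, so the higher numbers of BT474 went with longer lists. Taking the 2520 peaks of highest score from each list left 1 ligand window peak in each of the BT474 lists. Per Mb of ligand window there were 0.256, 0.512, 3.07 and 9.21 peaks, beside 0.911, 0.910, 3.10 and 10.6 per Mb over all protein-coding gene windows, so the BT474 densities were close to those of all genes. With 1 list per condition, no test compares vehicle with EGF.

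The windows of the neuregulins, of which several are long genes, held most of these peaks, and some of the peaks lay in neighbouring genes. NRG3 had 4 peaks in BT474 vehicle and 17 in BT474 EGF, which is 3.30 and 14.0 per Mb, and none in either SKBR3 list. NRG2 was the only ligand gene with a peak in its window in all 4 lists, with 1 peak in each SKBR3 list, 3 in BT474 vehicle and 6 in BT474 EGF. The SKBR3 vehicle peak and part of the peaks of both BT474 lists lay in introns of the neighbour PSD2. NRG1 had 2 and 8 peaks in the BT474 lists, or 1.52 and 6.08 per Mb, and NRG4 had 3 and 2. At NRG4, a site in both lists lay in the gene itself, and the other peaks lay in introns of FBXO22 or TMEM266. TGFA had 2 peaks in BT474 EGF alone. EREG had 1 peak in each EGF list and none with vehicle.

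**Figure D4:**
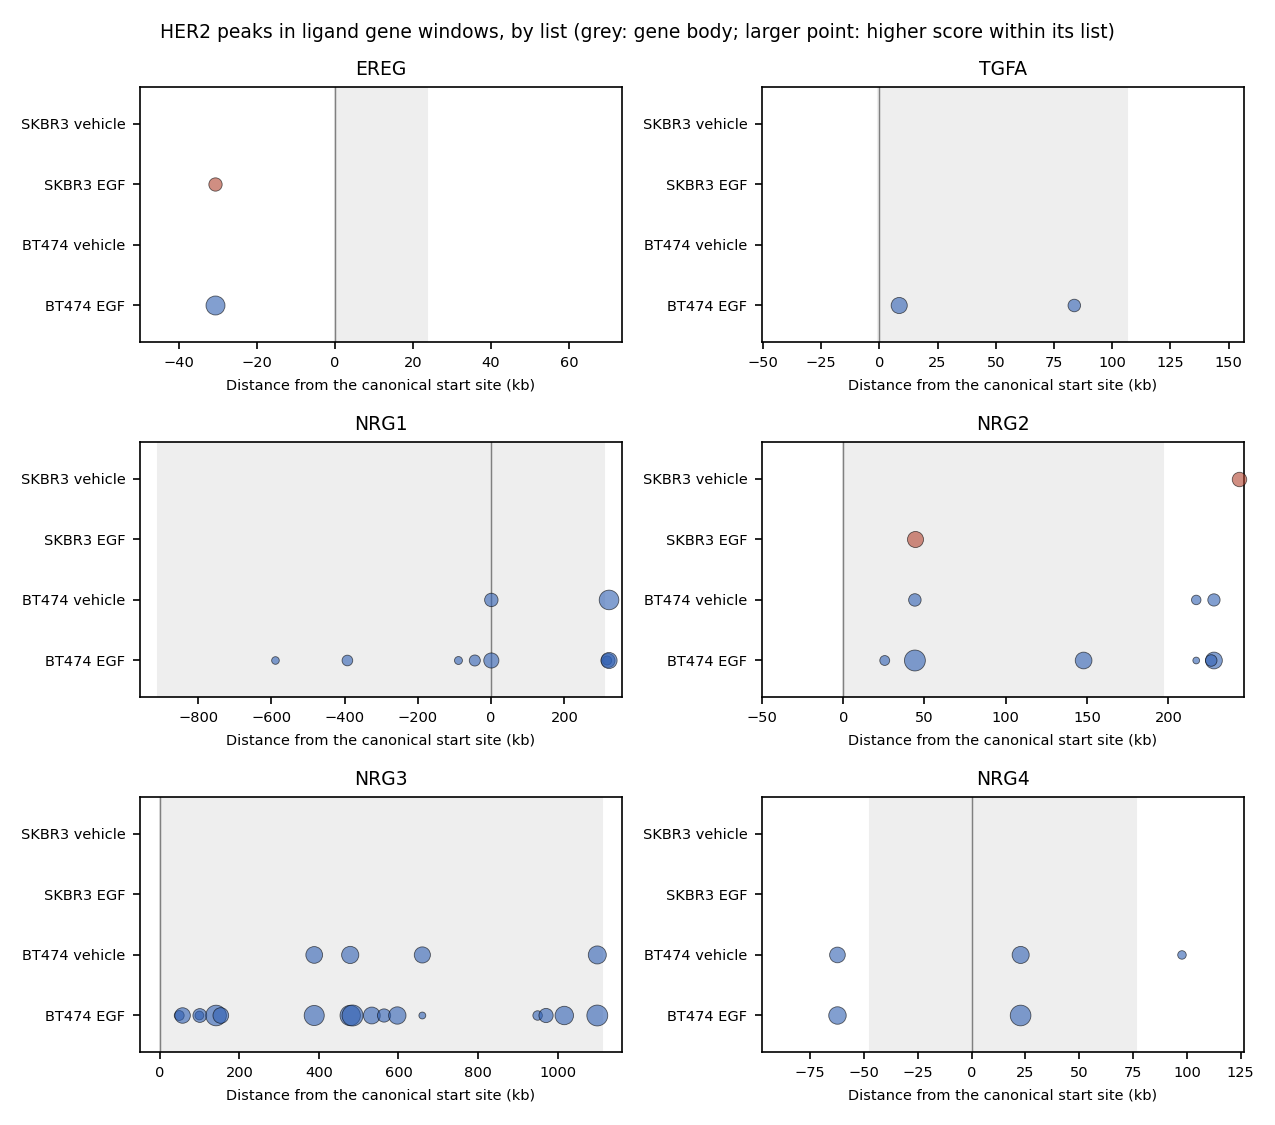
Position of each HER2 peak relative to the canonical start site, in kb and positive downstream, for the 6 ligand genes with a peak, with 1 row per list and the gene body in grey. Larger points have a higher score within their own list. NRG3 held 17 peaks in BT474 EGF and none in SKBR3, and the site 44.1 kb downstream of the NRG2 start was present in 3 of the 4 lists.

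Merging overlapping peaks gave 38 sites, of which 26 were in 1 list, 11 in 2 lists, 1 in 3 lists and 0 in all 4. The site in 3 lists lay in an intron of NRG2 (chr5:139378626-139378947 when merged), 44.1 kb downstream of the canonical start site. Its score was 128 in SKBR3 EGF, 43.5 in BT474 vehicle and 176.5 in BT474 EGF, above 49.5%, 26.1% and 90.9% of the peaks of those lists. It was absent from SKBR3 vehicle, whose only ligand peak lay at the far end of the NRG2 window in an intron of PSD2, with a score of 32.0. The scores have no stated scale and can be set side by side only within a list. No island lay within 21.5 kb of the NRG2 site in the islands of its own line. Since it is the only ligand site in 3 lists, its sequence is shown as the peak of SKBR3 EGF (chr5:139378713-139378920, plus strand of hg19).
NRG2 intron site: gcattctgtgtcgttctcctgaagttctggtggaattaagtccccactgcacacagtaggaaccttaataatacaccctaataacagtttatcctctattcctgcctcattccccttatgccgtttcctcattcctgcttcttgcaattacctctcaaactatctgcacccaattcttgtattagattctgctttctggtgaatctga

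The study describes a core of CGT and TGC under HER2 peaks, with a gap between them that was read here as 1 free base. It did not find the motif at the SKBR3 sites bound with vehicle only. The letters CGTNTGC, or GCANACG on the other strand, were sought in the whole of each peak. Ligand window peaks with the core numbered 0 of 1 in SKBR3 vehicle, 1 of 2 in SKBR3 EGF, 3 of 12 in BT474 vehicle and 7 of 36 in BT474 EGF. Over all peaks of these lists the shares were 8.44%, 15.9%, 19.4% and 11.8%. The NRG2 site in 3 lists had no core. The letters GCATACG, a form of the same core, also stand in the P7 primer of Illumina libraries, and the part of primer matches in these peaks was not tested. A match describes the letters of a peak and not a bound site.

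The SKBR3 EGF peak with a core was the EREG site, 30.7 kb upstream of the gene and between genes (chr4:75200075-75200274, score 85.0), and the BT474 EGF list held the overlapping peak chr4:75200030-75200303, with a score of 90.5. No island lay within 12.5 kb of it in SKBR3 or 4.50 kb in BT474. It stood in both EGF lists and in neither vehicle list, and is shown with the core in capitals, as are the peaks that follow. The same site falls in the window of EPGN.
EREG upstream site: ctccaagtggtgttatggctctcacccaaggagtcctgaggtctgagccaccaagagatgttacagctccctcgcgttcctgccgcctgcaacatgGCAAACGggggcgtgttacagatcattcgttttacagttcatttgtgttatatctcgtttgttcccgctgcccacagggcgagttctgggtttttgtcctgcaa

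In BT474 vehicle the 3 peaks of highest score were near NRG1, beyond the end of the gene and 322.1 kb from its canonical start (score 116.5), and at 2 sites in introns of NRG3, with scores of 85.5 and 75.0. In BT474 EGF they were in an intron of NRG3 (chr10:84119314-84119617, score 184), at the NRG2 site above (176.5) and at the first of the NRG3 sites, now chr10:84734981-84735296 with a score of 173.5. That NRG3 site, near the 3′ end of the gene and 1100 kb from its canonical start, was thus among the first 3 of both BT474 lists, and carried a core. All 4 of the NRG3 sites of BT474 vehicle were also in BT474 EGF. The NRG4 intron peak chr15:76281858-76282104 (score 73.5, and 153.5 in BT474 EGF) carried a core in both lists. The sequences are those of the BT474 vehicle peaks, with NRG3 as chr10:84735018-84735266, both on the plus strand.
NRG3 intron site: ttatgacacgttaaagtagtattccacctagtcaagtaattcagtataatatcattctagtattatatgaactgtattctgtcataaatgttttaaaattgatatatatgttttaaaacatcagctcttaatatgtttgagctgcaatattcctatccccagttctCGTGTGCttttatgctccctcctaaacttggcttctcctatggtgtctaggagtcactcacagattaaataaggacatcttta
NRG4 intron site: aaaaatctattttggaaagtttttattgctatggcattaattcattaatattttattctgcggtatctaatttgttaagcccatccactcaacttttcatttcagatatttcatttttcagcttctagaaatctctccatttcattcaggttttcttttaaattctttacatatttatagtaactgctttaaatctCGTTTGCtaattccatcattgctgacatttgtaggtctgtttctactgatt

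TGFA had peaks in BT474 EGF alone, at chr2:70697085-70697375 with a score of 37.5 and at chr2:70772286-70772513 with a score of 56.0, both in introns. The former carried a core and lay 83.7 kb downstream of the canonical start site. It is shown, on the plus strand, because TGFA is the sole EGFR-only ligand gene with a peak.
TGFA intron site: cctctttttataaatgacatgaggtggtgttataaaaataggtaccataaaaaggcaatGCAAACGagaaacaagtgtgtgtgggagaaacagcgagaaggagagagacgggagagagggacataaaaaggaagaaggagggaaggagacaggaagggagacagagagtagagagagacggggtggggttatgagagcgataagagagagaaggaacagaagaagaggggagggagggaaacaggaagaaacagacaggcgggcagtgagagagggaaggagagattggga

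NRG1 was the ligand gene with a HER2 peak nearest to a start site. A site in both BT474 lists lay 0.559 kb downstream of the canonical start in the vehicle list and 0.575 kb in the EGF list, with scores of 48.0 and 49.5, above 31.7% and 42.8% of the peaks of those lists. The nearest annotated start site was 0.140 or 0.156 kb away, and the nearest H3K4me1 island of BT474 was 213 kb away. The other ligand peaks lay 4.37 kb or more from any start site of the gene. In all, introns held 1, 1, 11 and 32 of the ligand peaks of the 4 lists, counting those of neighbouring genes, and 0, 1, 1 and 4 were intergenic.

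None of the HER2 peaks of ligand windows lay in an island of both H3K4me1 replicates of its own line. The counts were 0 of 1, 0 of 2, 0 of 12 and 0 of 36, for which the upper limits of 95% Wilson intervals are 79.3%, 65.8%, 24.2% and 9.64%. Over the whole lists 12.4%, 13.1%, 11.1% and 10.1% of peaks lay in islands of both replicates, so most peaks of each list lay outside them too. Some ligand peaks were close to an island, such as 2 at NRG3 in BT474 EGF that lay 0.262 and 0.949 kb from the nearest. The peaks at NRG1, 2 in BT474 vehicle and 8 in BT474 EGF, could not count, since BT474 replicate 1 had no island in that window. The upper limit of the longest list was slightly below the value of that list as a whole, and the limits of the others were above theirs. Because part of the 0 was fixed in this way, the limits do not show that ligand peaks lay in islands less often than others. These limits cover counting error only, and peaks of a gene are not independent. With islands of either replicate, 1 ligand peak was found, at NRG3 in BT474 EGF (chr10:83683416-83683615, score 28.0), in an island of BT474 replicate 2, and it carried a core.
NRG3 peak in an island: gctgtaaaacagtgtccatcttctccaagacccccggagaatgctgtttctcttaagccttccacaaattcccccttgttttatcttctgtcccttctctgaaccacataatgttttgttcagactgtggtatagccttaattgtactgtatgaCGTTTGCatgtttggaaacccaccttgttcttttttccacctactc

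A peak of BT474 EGF in an intron of NRG2 (chr5:139274839-139275112, score 60.5) lay in islands of both SKBR3 replicates and of neither BT474 replicate. The nearest island of BT474 was 13.4 kb away. NRG2 had more peaks in the longer BT474 lists. The best rank by score in its window was 1559 in SKBR3 vehicle (the peak in PSD2), 1271 in SKBR3 EGF, 6275 in BT474 vehicle and 2666 in BT474 EGF. Among the first 2520 peaks of each list, the NRG2 window thus had a peak in both SKBR3 lists and none in BT474. The rank in BT474 EGF lay just past that cut, so equal list length gives no order of the lines at NRG2. The peak at chr5:139274839-139275112 carried a core.
NRG2 peak in SKBR3 islands: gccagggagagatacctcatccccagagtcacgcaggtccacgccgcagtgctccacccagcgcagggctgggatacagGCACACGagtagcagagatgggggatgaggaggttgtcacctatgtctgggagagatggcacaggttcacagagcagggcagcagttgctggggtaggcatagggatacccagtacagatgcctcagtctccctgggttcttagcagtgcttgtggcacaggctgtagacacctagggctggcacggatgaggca

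Among the 17 partner genes, 1, 7, 10 and 14 had a HER2 peak in SKBR3 vehicle, SKBR3 EGF, BT474 vehicle and BT474 EGF, with 2, 10, 20 and 46 peaks, beside 12.2%, 13.0%, 35.5% and 72.7% of all gene windows. Of these peaks, 0, 3, 4 and 6 lay in islands of both replicates of their own line, beside 12.4%, 13.1%, 11.1% and 10.1% over the whole lists. At EGFR, SKBR3 EGF held 2 such intron peaks, of which chr7:55163361-55163706 had a score of 270, above 85.7% of its list. The overlapping EGFR peak had a score of 447.5 in BT474 EGF, above 99.1% of that list, and there no island of BT474 lay within 21.3 kb. ERBB4 held 11 peaks in BT474 EGF and 3 in BT474 vehicle and, like NRG3, none in either SKBR3 list.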

How the data were processed

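HER2 ChIP-exo gave 1 list for each of 4 conditions, and H3K4me1 ChIP-seq gave 2 replicates per line. Samples were grouped by their labels, and the 2 input samples were left out as not analysed here. In the study's methods, single-end reads of 36 bp were mapped to hg19 with bowtie2, and reads of mapping quality below 5 were removed. Peaks were called with MACS2 and islands with SICER against input. Reads in blacklisted regions, or where the input of a line had high signal, were also taken out, so the regions left out can differ between the lines. The submitters' processing notes instead name BWA 0.5.9, MACS 1.4.1 and SICER 1.1, and this difference was not settled. HER2 peaks carry a score deposited by the authors, in steps of 0.5 on a scale that is not stated, and their depth is unknown. Islands carry a whole read count, deposited by the authors and unscaled.

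GENCODE release 44, lifted to GRCh37, gave the genes, and GRCh37 the sequences. Reads of islands were summed per window, in proportion to the bases inside, and rounded. All protein-coding windows were tested with edgeR 4.0.16 in R 4.3.3 (filterByExpr, TMM, quasi-likelihood) and adjusted by Benjamini and Hochberg, with a threshold of 0.05. An exact permutation of 2 against 2 libraries cannot go below p = 0.333. DESeq2 1.42.0, other windows, filters and scalings, a regional offset (reads within 1 Mb, plus 100 reads), a replicate block and leaving out each library were tried. A peak counted as shared, or as in a window or island, at 1 bp of overlap. The canonical start is that of the Ensembl canonical transcript. The fit was tested on simulated data. The members, lists and tests were chosen with earlier results of these data known. All 10 ligand genes were to be named, as were partner genes that were called or had a HER2 peak, the 3 peaks of highest score per list, and the 2 genes most like each of the 2 ligand genes with the largest differences.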

Additional observations from a re-analysis of the deposited data

How the results depend on the processing

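HBEGF, TGFA, NRG2 and NRG3 kept their direction and stayed past the threshold under all 13 alternatives. EGF did so under 12, and its log2 difference turned to -0.19 with the regional offset. AREG turned to 0.37 with that offset, and passed the threshold under 4 others, at adjusted p between 0.00492 and 0.0406 by edgeR or DESeq2. BTC and EREG each missed the threshold under 5 alternatives and NRG4 under 3. NRG3 had no island listed in SKBR3, so its calls rest on the BT474 reads alone. The replicate numbers did not pair the samples (correlation of same-numbered deviations -0.038). Over all genes the block moved the calls from 6446 to 5703 for SKBR3 and from 7194 to 6227 for BT474. With the replicate block the calls were 3 and 4 ligand genes and 6 and 6 partner genes for SKBR3 and BT474, and among the ligand genes BTC alone lost its call (log2 0.52, adjusted p = 0.0507 by edgeR), and among the partner genes BACE1 did (-1.97, adjusted p = 0.0592 by edgeR). Ligand genes higher in BT474 numbered 2 in the gene body alone and 2 with 10 kb on each side. Over all genes tested, 5379 of 15501 and 6167 of 17348 were higher in BT474 in these settings. The number of ligand genes also moved when a library was left out, and fell without either BT474 library, as did the calls over all genes. Partner genes higher in BT474 numbered 4 in the gene body alone.

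Among the partner genes the sign turned at EPGN in the gene body (0.14) and at RHBDF1 with the regional offset (0.18). Differences that had not been called turned at ADAM10 (-0.05 without TMM, -0.16 in the body, -0.13 with 10 kb, -0.43 with the offset), GRB2 (-0.09, -0.08, -0.08 and -0.70 in the same order, and -0.01 with all annotated genes), SHC1 (-0.05, -0.27, -0.26 and -0.33) and LRIG1 (-0.08 without TMM and -0.84 with the offset). With the offset these 4 became calls. ERBB3 missed the threshold in the gene body (adjusted p = 0.13) and without BT474 replicate 1 (adjusted p = 0.0684, both by edgeR). The causes were not tested.

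Island cover of the merged ligand windows was 6.57% ± 0.303 in SKBR3 and 5.98% ± 0.0253 in BT474 (SD, n = 2). It was 4.76% and 4.95% in gene bodies, 5.32% and 5.22% with 10 kb, and 4.34% and 3.24% with islands at or above the median density. Start sites in an island averaged 14.5 in SKBR3 and 13.0 in BT474. They numbered 8 and 8.5 for coding transcripts, and 18.5 and 24.5 with islands within 1 kb.

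HER2 peaks in ligand windows fell to 0, 1 and 7 in SKBR3 vehicle, SKBR3 EGF and BT474 vehicle, both in gene bodies and with 10 kb, and ligand genes with a peak to 0 and 1 in the SKBR3 lists. With scores at or above the median there were 0, 0, 6 and 16 peaks in the 4 lists, and 0 ligand genes in either SKBR3 list. With equal numbers of peaks 1 peak and 1 gene were left in each BT474 list. With islands of either replicate, 1 peak of BT474 EGF lay in an island.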

Other observations

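The genes with levels most like those of NRG2 and NRG3, the ligand genes with the largest differences, were sought over the 4 H3K4me1 libraries by the Euclidean distance of log2 CPM per kb of window, with 0.001 added. For NRG2 they were PLEKHG1 (distance 0.322), with 1.35 and 1.18 CPM per kb in SKBR3 and 0.0681 and 0.0393 in BT474, and IFNK (0.380), with 1.35 and 1.13 against 0.0534 and 0.0372. Only 13 genes lay within a distance of 1 of NRG2. For NRG3 they were MED30 (0.0191) and PDHA1 (0.064), both at 0 in SKBR3, and 313 genes lay within a distance of 1. The likeness covers 4 libraries of 2 lines and was not tested.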
